A study of Homo sapiens with 12 samples.

Results

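The 7 genes of the FOS and JUN families (FOS, FOSB, FOSL1, FOSL2, JUN, JUNB and JUND) and ATF3 were followed through 12 RNA-seq libraries from 3 human carcinoma lines. The members were the entries of the count tables that carry these 8 symbols, 8 of the 25647 genes listed in every library. Each of the 8 passed the filter on low counts, which kept 16394 genes for testing. Their deposited read counts ran from 12 (FOSB in untreated A549) to 3947 (JUND in HCT116 under GSK126).

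Poly(A) RNA came from MHCC97H (hepatocellular carcinoma), A549 (lung adenocarcinoma) and HCT116 (colorectal carcinoma). For each of them the series has untreated cells and cells given 1 µM trichostatin A (TSA, which blocks histone deacetylases), 50 µM GSK126 (which blocks EZH2, the methyltransferase of the polycomb complex PRC2) or 100 µM S2101 (which blocks the demethylase LSD1). The labels name no other agent or genetic change in any group, and the sources used here give neither treatment times nor a vehicle. Every line gave 1 library per condition, so a condition is a set of 3 lines (n = 3) and not of repeat cultures. The fit takes out the level of each line. P-values therefore rest on how the lines disagreed in response, mixed with noise between single libraries and pooled over the 12 libraries. A difference of response between lines could not be tested. HCT116 was kept in RPMI 1640 and the other lines in DMEM, so line and medium cannot be told apart.

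AP-1 is a family of dimers of basic leucine zipper proteins that bind DNA at short palindromic elements. JUN proteins pair with themselves or with FOS proteins, whereas FOS proteins need a JUN partner to bind DNA. FOS, FOSB, JUN, JUNB and ATF3 belong to the immediate early genes, which growth factors and stress switch on rapidly through MAP kinases, and FOSL1 is abundant in many invasive carcinoma lines. ATF3 pairs with JUN proteins, represses or activates its targets depending on the partner, and is itself a target of the integrated stress response.

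Library totals ran from 14468304 to 19061367 counts. Levels are given in CPM, counts divided by library size, and the detection floor of 3 reads was 0.1574 to 0.2073 CPM, for counting error alone. Lineage markers partly matched the labels. In untreated MHCC97H 6 of 9 hepatic markers reached 1 CPM, with APOB at 15.3 and ALB at 0.561 CPM, but the intestinal cadherin CDH17 stood at 134 CPM there and at 0.175 CPM in untreated HCT116. EPCAM was at 227 CPM in untreated HCT116, but only 2 of 8 intestinal markers reached 1 CPM there, against 5 of 8 in untreated MHCC97H. Of the 9 genes listed as lung markers, 4 reached 1 CPM in untreated A549 (AKR1B10 at 2780 and AKR1C1 at 806 CPM), where the lung factor NKX2-1 had no read. As many reached it in untreated MHCC97H (AKR1B10 at 4160 and AKR1C1 at 1410 CPM), so these genes did not set A549 apart. In untreated HCT116 5 of 9 did, with NKX2-1 at 1.52 CPM. SFTPB was at 2.24, 1.86 and 1.81 CPM in untreated MHCC97H, A549 and HCT116. Summed blood and stromal markers lay between 13.1 and 107 CPM over the 12 libraries. The A549 library under S2101 stood apart. Of the 37 genes with no read in untreated A549 and at least 5 CPM under TSA, all 37 had reads under S2101 and 35 under GSK126. They stood at 8.57% of their summed TSA level under S2101, against 2.9% under GSK126. In MHCC97H the 45 such genes reached 0.96% under S2101 and 1.09% under GSK126. HCT116 had 4 such genes, at 1.7% and 6.33%. The part of this signal in the S2101 results of A549 was not tested, and the changes that rest on it are also given without it.

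The sequences just upstream of the transcription starts are shown as a description, and a link between them and the changes of the genes was not tested. RefSeq promoter entries of build GRCh38.p14 were matched for 7 of the 8 genes, and FOSL1 was not matched. Both strands of the 250 bases before each start were searched for TGACGT, the core of the cAMP response element, for the full element TGACGTCA, which contains that core, for TGACATCA, its variant known from the JUN promoter, for the AP-1 site TGACTCA, for TATAAA, and for the CArG box of serum response factor. Capitals mark the matches, and each window is read 5′ to 3′ along the strand of its gene. The windows lie at chr14:75278728-75278827 for FOS, chr19:45467896-45467995 for FOSB, chr2:28392758-28392857 for FOSL2, chr19:18281693-18281842 for JUND, chr1:58784048-58784147 for JUN and chr19:12791386-12791485 for JUNB.
FOS: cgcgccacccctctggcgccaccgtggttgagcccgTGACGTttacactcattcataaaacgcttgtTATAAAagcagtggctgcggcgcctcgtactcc
FOSB: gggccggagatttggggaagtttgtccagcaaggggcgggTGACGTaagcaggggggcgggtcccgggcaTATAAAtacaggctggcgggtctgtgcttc
FOSL2: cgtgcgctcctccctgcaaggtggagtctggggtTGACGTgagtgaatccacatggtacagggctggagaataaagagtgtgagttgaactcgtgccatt
JUND: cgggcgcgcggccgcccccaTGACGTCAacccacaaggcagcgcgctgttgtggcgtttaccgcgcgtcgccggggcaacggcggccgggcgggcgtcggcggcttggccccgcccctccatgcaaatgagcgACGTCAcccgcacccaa
JUN: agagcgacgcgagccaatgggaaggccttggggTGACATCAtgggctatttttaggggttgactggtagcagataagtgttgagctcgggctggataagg
JUNB: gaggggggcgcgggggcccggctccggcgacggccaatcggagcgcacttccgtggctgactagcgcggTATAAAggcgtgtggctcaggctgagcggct

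The core TGACGT occurred in the windows of 4 genes, FOS at position -64, FOSB at -60, FOSL2 at -66 and JUND, counted back from the transcription start. JUND carried the full element at -200 and the core on the other strand at -87. Of 35116 RefSeq promoters of the same length, 7.1% held the core and 1.65% the full element. The variant TGACATCA was found in JUN at -67 and upstream of the first of the ATF3 starts at -123, against 2.37% of promoters. TATAAA occurred in FOS at -33, FOSB at -30, JUNB at -31 and before the other ATF3 start at -230, against 10.7% of promoters. TGACTCA (4.2% of promoters) and the CArG box (1.16%) were in none of the member windows, which says only that these letters are not in these 250 bases. A match is a description of the sequence and not a measured binding site.

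In RefSeq annotation of GRCh38.p14, JUN (chromosome 1, 58780791 to 58784047), JUNB (chromosome 19, 12791486 to 12793315) and JUND (chromosome 19, 18279694 to 18281622) have 1 exon each. FOS (chromosome 14, 75278828 to 75282230), FOSL1 (chromosome 11, 65892049 to 65900545) and FOSL2 (chromosome 2, 28392858 to 28417317) have 4. ATF3 (chromosome 1, 212565407 to 212620777) has 3 to 5 exons and FOSB (chromosome 19, 45467996 to 45475179) 3 to 4, depending on the transcript. FOSB overlaps ERCC1, JUNB overlaps HOOK2, and FOSL2 overlaps the antisense transcript FLJ31356, all on opposite strands. The sources used here do not say how the counting treated strand, so the counts of these 3 genes are uncertain to that extent.

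Under TSA, FOS, FOSB, JUND and ATF3 rose and FOSL1 fell, by edgeR's quasi-likelihood test at a Benjamini-Hochberg adjusted p under 0.05. These 5 of 8 calls stand beside 34.1% of all genes tested, with 17.1% called higher and 17.1% called lower. The median log2 change of the 8 genes was 1.85, against 0.07 over all genes tested. FOS, FOSB, JUN, JUNB, JUND and ATF3 were higher than untreated in each of the 3 lines (6 of 8, against 28.3% of all genes), and FOSL1 was lower in each (1 of 8, against 26.6%).

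FOS encodes the prototype FOS subunit, whose RNA is short-lived. Its level was 9.74, 2.27 and 8.45 CPM (TMM-scaled, as are all CPM of these genes) in untreated MHCC97H, A549 and HCT116, and 32.3, 65.5 and 21.0 CPM under TSA. All 3 TSA libraries lay above all 3 untreated ones, and A549 went from the lowest untreated level to the highest TSA level. The means were 6.82 ± 3.99 and 39.6 ± 23.1 CPM (SD, n = 3). The fitted log2 change was 2.46 ± 0.62 (SE), or 5.5-fold (edgeR adjusted p = 0.0163). In RNA from whole cultures, a change in every cell and a change in the share of cells that hold the RNA cannot be told apart.

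FOSB, the FOS paralogue that also exists as a truncated splice form, had the lowest RPKM of the 8 in every library. Untreated MHCC97H, A549 and HCT116 had 0.981, 0.826 and 2.62 CPM and the TSA libraries 5.4, 9.35 and 3.27 CPM. The groups did not overlap, but HCT116 moved little, from 45 to 54 reads. The fitted log2 change was 2.13 ± 0.71 (edgeR adjusted p = 0.045). FOS, FOSB and JUND were the members whose 3 TSA libraries all lay above the untreated ones (3 of 8, against 11.4% of all genes).

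FOSL1, or FRA1, lacks the transactivation domain of FOS and was the leading FOS-family RNA of the untreated lines per length. It stood at 140, 114 and 61.9 CPM in untreated MHCC97H, A549 and HCT116 and at 5.8, 6.92 and 53.8 CPM under TSA. The loss was 24.2-fold in MHCC97H and 16.5-fold in A549, whereas the HCT116 libraries differed 1.15-fold. The fitted log2 change was -2.83 ± 0.77 (7.09-fold lower, edgeR adjusted p = 0.0222). The untreated and TSA libraries did not overlap (1 of 8, against 11.2% of all genes), and no other member had this pattern downward.

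FOSL2, or FRA2, a relative of FOSL1, moved in opposite directions in different lines. It went from 128 to 78.8 CPM in MHCC97H and from 178 to 66.6 CPM in A549, but from 30.7 to 115 CPM in HCT116. The fit over the 3 lines gave a log2 change of 0.16 ± 0.63 (edgeR adjusted p = 0.865). Without HCT116 the change was -1.04 (adjusted p = 0.02), and over the alternatives the adjusted p ran from 0.02 to 0.909. With 1 library per line and condition, the difference between the lines was not tested.

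**Figure D1:**
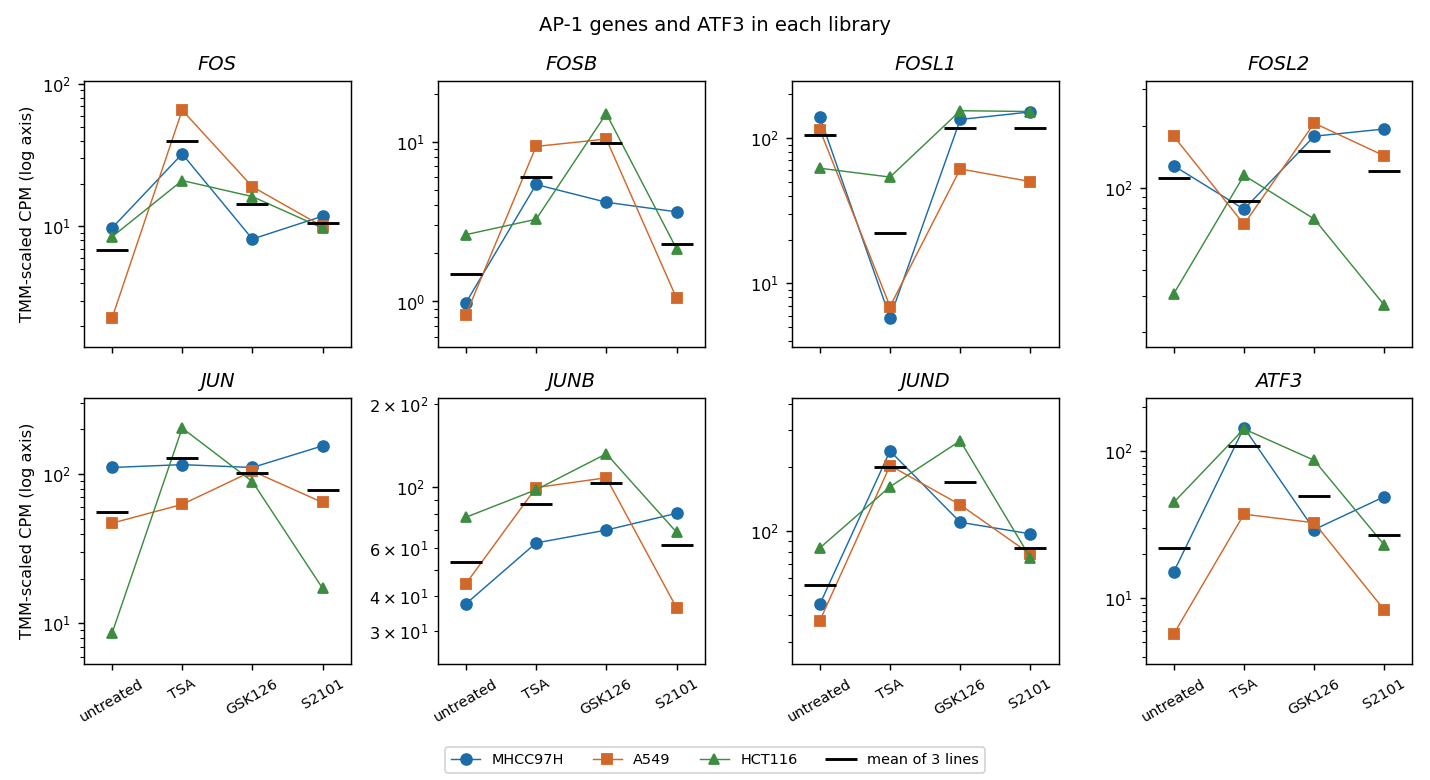
TMM-scaled CPM (log axis) of the 8 genes by condition. Points joined by lines are the libraries of 1 cell line and black bars the mean of 3 lines; FOS, FOSB, JUND and ATF3 were higher under TSA in each line, and FOSL1 stood at 5.8 CPM in MHCC97H and 6.92 CPM in A549 but at 53.8 CPM in HCT116.

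Among the JUN genes, JUND passed the test under TSA. JUND encodes the JUN protein most often linked to slow growth, and it stood at 45.1, 37.7 and 83.2 CPM in untreated MHCC97H, A549 and HCT116. The TSA libraries had 239, 204 and 162 CPM, all above the untreated ones. The fitted log2 change was 1.96 ± 0.35, or 3.89-fold (edgeR adjusted p = 0.00493), the smallest adjusted p among the 8 genes.

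JUN, the founding member and a partner of every FOS protein, barely differed in MHCC97H (111 untreated and 116 CPM under TSA) and A549 (47.0 and 62.8 CPM). In HCT116 it went from 8.57 CPM, the lowest of the untreated lines, to 204 CPM, the highest of the 12 libraries. The difference in HCT116 was 23.8-fold, and the fit over the 3 lines gave 1.74 ± 0.87 on the log2 scale (edgeR adjusted p = 0.146). DESeq2 called JUN higher (1.78, adjusted p = 0.0402), the one alternative that did, and over the alternatives the adjusted p ran from 0.0402 to 0.528. JUNB, which can dampen JUN activity, was at 37.6, 44.5 and 77.6 CPM untreated and 62.6, 99.5 and 97.7 CPM under TSA. It was higher in each line, and the fitted change of 0.75 ± 0.33 did not pass (adjusted p = 0.102).

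ATF3 was at 15.1, 5.71 and 44.9 CPM in untreated MHCC97H, A549 and HCT116 and at 145, 37.3 and 142 CPM under TSA. Each line had a higher level, by 9.65-, 6.52- and 3.17-fold, although the A549 TSA library lay below the untreated HCT116 library, so that the groups overlapped. The fitted log2 change was 2.45 ± 0.55, or 5.47-fold (edgeR adjusted p = 0.0108).

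The TSA calls depended on which lines entered the fit. Without A549 none of the 5 calls passed, with adjusted p of 0.0952 for FOS, 0.285 for FOSB, 0.259 for FOSL1, 0.103 for JUND and 0.105 for ATF3, and only 12 of 16202 genes passed at all. Without MHCC97H only ATF3 passed (0.0416), and the others ran from 0.0556 (JUND) to 0.146 (FOSL1). Without HCT116 all 5 passed, FOSL1 with a log2 change of -4.23. Over all alternatives the adjusted p spanned 0.000171 to 0.127 for FOS, 0.00731 to 0.285 for FOSB, 0.000147 to 0.259 for FOSL1, 1.21e-06 to 0.103 for JUND and 3.29e-05 to 0.197 for ATF3. The direction of these 5 changes was the same under every alternative.

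**Figure D2:**
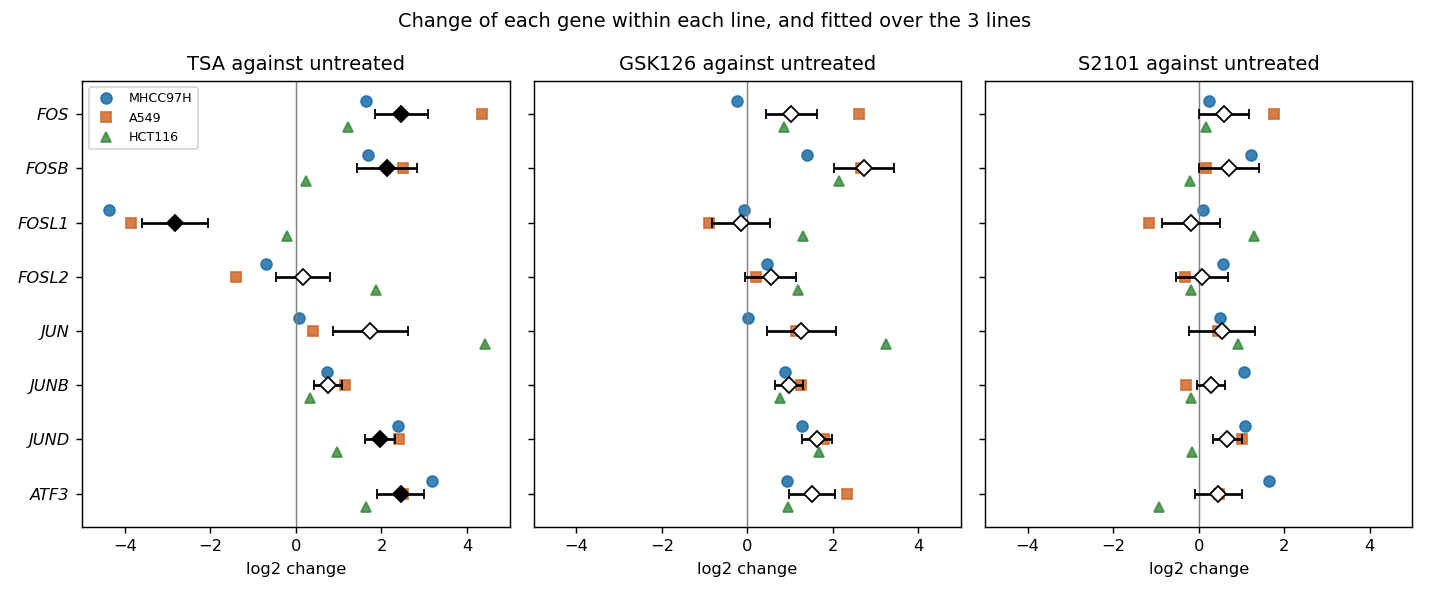
Log2 change of each gene against untreated under each compound. Coloured points are single lines (TMM-scaled CPM plus a pseudocount of 1), and diamonds with bars are the fitted change ± SE over the 3 lines, filled where the edgeR adjusted p was under 0.05; filled diamonds occur under TSA alone, at 2.46 for FOS, 2.13 for FOSB, -2.83 for FOSL1, 1.96 for JUND and 2.45 for ATF3.

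Under GSK126 none of the 8 genes passed, and neither did any other gene (0.0% of 16394 by edgeR), although 2784 genes had an unadjusted p under 0.05. The untreated libraries are shared with the TSA comparison, so the values are set side by side and not related to each other. The median log2 change of the 8 genes was 1.15, against 0.01 over all genes. FOSB, FOSL2, JUN, JUNB, JUND and ATF3 were higher than untreated in each line (6 of 8, against 22.4% of all genes), and none was lower in each (0 of 8, against 23.4%).

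FOSB and JUND stood out of the untreated range under GSK126 (2 of 8, against 3.77% of all genes). FOSB was at 4.18, 10.4 and 15.0 CPM in MHCC97H, A549 and HCT116, above the highest untreated value of 2.62 CPM, with a fitted log2 change of 2.73 ± 0.7 (edgeR adjusted p = 0.113). JUND was at 110, 133 and 267 CPM, above the highest untreated value of 83.2 CPM, with a change of 1.62 ± 0.35 (adjusted p = 0.0936). HCT116 had the highest level of both genes under GSK126, while under TSA it had the lowest of both.

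In a fit on the 9 libraries without TSA, FOSB (2.79, adjusted p = 0.021) and JUND (1.64, adjusted p = 0.0189) passed edgeR's test, together with 13.5% of all genes, 6.62% being called higher. DESeq2 on the 12 libraries called FOSB (adjusted p = 0.00314), JUND (0.000686) and ATF3 (0.041) higher, with 7.36% of all genes called and 3.43% called higher. Over the alternatives the adjusted p ran from 0.00314 to 0.923 for FOSB, from 0.000686 to 0.923 for JUND and from 0.041 to 1.0 for ATF3.

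Several of the other members differed by line under GSK126. FOS was at 8.16, 19.0 and 16.2 CPM in MHCC97H, A549 and HCT116, an 8.37-fold higher level in A549 and a slightly lower one in MHCC97H (log2 change fitted over the lines 1.03 ± 0.6, edgeR adjusted p = 0.439). JUN was at 111, 105 and 89.3 CPM, equal in MHCC97H to the untreated 111 CPM and 10.4-fold higher in HCT116 (1.26 ± 0.81, adjusted p = 0.499). The 3 lines, which spanned 8.57 to 111 CPM of JUN untreated, thus lay within 89.3 to 111 CPM. JUNB was at 69.7, 108 and 132 CPM, 1.86-, 2.42- and 1.7-fold higher than untreated (0.98 ± 0.33, adjusted p = 0.17). On the 6 untreated and GSK126 libraries edgeR called JUNB higher (1.02, adjusted p = 0.0454), the 1 alternative that did. That edgeR fit also called FOSB (2.77, adjusted p = 0.0276) and JUND (1.64, adjusted p = 0.02) higher. It called 275 of 14530 genes, 205 of them higher. ATF3 was at 29.3, 32.6 and 86.8 CPM (1.51 ± 0.54, adjusted p = 0.197). FOSL2 was at 178, 206 and 70.7 CPM (0.55 ± 0.6, adjusted p = 0.737). FOSL1 stood at 134, 61.2 and 154 CPM, lower than untreated in A549 and higher in HCT116 (-0.15 ± 0.68, adjusted p = 0.957).

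Under S2101 no member and no other gene passed (0.0% of 16394 by edgeR, with 821 genes at an unadjusted p under 0.05, and 18 genes called by DESeq2). The median log2 change of the 8 genes was 0.5, against 0.0 over all genes. FOS and JUN were higher than untreated in each line (2 of 8, against 18.3% of all genes), and no member was lower in each (against 21.4%). FOS was at 11.8, 10 and 9.74 CPM in MHCC97H, A549 and HCT116, and its groups did not overlap by a margin within rounding (1 of 8, against 1.57%), since untreated MHCC97H also had 9.74 CPM. Its change in MHCC97H and HCT116 was 1.21- and 1.15-fold, and the 4.4-fold difference came from A549, the library that stood apart. The fitted log2 change was 0.59 ± 0.58 (edgeR adjusted p = 0.985) and 0.71 without that library (adjusted p = 1.0, with a range of 0.286 to 1.0 over the alternatives). With every A549 library left out, the FOS change was 0.26.

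JUND under S2101 was at 97, 77.7 and 74.7 CPM (0.67 ± 0.34, edgeR adjusted p = 0.936), and 0.62 on the log2 scale without the A549 library. ATF3 was at 49.1, 8.3 and 23.0 CPM, 3.26-fold higher in MHCC97H and 1.95-fold lower in HCT116 (0.46 ± 0.55, adjusted p = 1.0). FOSL1 was at 151, 50.1 and 152 CPM, 2.28-fold lower in A549 and 2.46-fold higher in HCT116 (-0.17 ± 0.68, adjusted p = 1.0). Without the A549 library the fitted FOSL1 change was 0.09 and that of ATF3 0.68. JUN was at 155, 64.7 and 17.2 CPM (0.54 ± 0.77, and 0.39 without the A549 library) and JUNB at 80.2, 36.4 and 68.5 CPM (0.28 ± 0.33, and 0.64). FOSL2 was at 193, 143 and 27.0 CPM (0.08 ± 0.6, and 0.05) and FOSB at 3.64, 1.05 and 2.14 CPM (0.71 ± 0.7, and 1.17). None of these 4 genes lay outside its untreated range in all 3 lines, and none passed with or without that library.

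Set against each other, TSA and GSK126 differed in FOSL1, which was 6.37-fold lower under TSA (log2 change -2.67 ± 0.74, edgeR adjusted p = 0.0261). This was 1 of 8 members, against 28.7% of all genes called and 14.2% called lower. FOS was higher under TSA in each line, but the fitted change of 1.43 ± 0.58 did not pass (adjusted p = 0.0923). Against S2101, TSA gave higher FOS (1.87 ± 0.59, adjusted p = 0.0449), JUND (1.29 ± 0.34, adjusted p = 0.0256) and ATF3 (1.99 ± 0.54, adjusted p = 0.0274) and lower FOSL1 (-2.66 ± 0.74, adjusted p = 0.0298). These were 4 of 8 members, against 26.3% of all genes called, 13.2% higher and 13.0% lower. Without the A549 S2101 library none of the 4 calls against S2101 passed, with log2 changes of 1.71 for FOS (edgeR adjusted p = 0.158), 1.35 for JUND (0.079), 1.79 for ATF3 (0.109) and -2.87 for FOSL1 (0.0603). None of the 5 calls passed without A549 or without MHCC97H, where the adjusted p lay between 0.0693 (ATF3 against S2101) and 0.196 (FOSL1 against S2101). Without HCT116 the FOSL1 calls and that of JUND passed, and those of FOS (0.0758) and ATF3 (0.0671) did not. Over the alternatives the adjusted p of FOSL1 ran from 0.000366 to 0.204 against GSK126. Against S2101 it ran from 0.000482 to 0.227 for FOSL1, 0.00648 to 0.186 for FOS, 0.00249 to 0.183 for JUND and 0.00129 to 0.326 for ATF3. The compounds were used at different doses, so these are differences between these treatments as given.

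GSK126 and S2101 did not differ in any of the 8 genes by edgeR, nor in any other gene (0.0% of 16394, with 455 genes at an unadjusted p under 0.05 and no gene called by DESeq2). The largest fitted difference was in FOSB, with a log2 change of 2.01 ± 0.7 (adjusted p = 1.0; 1.53 without the A549 S2101 library), which was higher under GSK126 in each line. JUND was next to it in unadjusted p, with a change of 0.95 ± 0.35 (edgeR adjusted p = 1.0, and 1.02 without that library) and a higher level under GSK126 in each line. In MHCC97H the higher CPM of both genes came from the scaling to library size. FOSB had 63 reads under each compound there, and JUND 1658 under GSK126 and 1680 under S2101.

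The lines differed in the level of ATF3. Over the 4 conditions, A549 had 5.71, 37.3, 32.6 and 8.3 CPM (untreated, TSA, GSK126, S2101), MHCC97H 15.1, 145, 29.3 and 49.1 CPM and HCT116 44.9, 142, 86.8 and 23.0 CPM. ATF3 was lower in A549 than in HCT116 (log2 change -1.96 ± 0.47, edgeR adjusted p = 0.00855) and than in MHCC97H (-1.54 ± 0.48, adjusted p = 0.0278). In such comparisons of lines, the 4 libraries of a line carry different treatments and are not repeat cultures. These 2 differences were called. In each comparison ATF3 was the 1 member of 8 called, against 44.1% and 43.5% of all genes, with 21.1% and 20.7% called lower. The call against MHCC97H did not pass without the TSA libraries (0.0687), the untreated ones (0.0602) or the A549 S2101 library (0.105), and that against HCT116 did not pass without the untreated ones (0.0512). The alternatives gave 0.00256 to 0.105 against MHCC97H and 8.89e-05 to 0.0512 against HCT116. Between HCT116 and MHCC97H no member passed (0 of 8, against 55.1% of all genes). DESeq2 called 1, FOSL2 (-1.29, adjusted p = 0.0217), among 9507 of 16394 genes.

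HCT116 had the lowest JUN and FOSL2 outside TSA. FOSL2 stood at 30.7, 70.7 and 27.0 CPM in untreated, GSK126 and S2101 HCT116, against 128 to 193 CPM in MHCC97H and 143 to 206 CPM in A549. In the TSA libraries the order was reversed, with 115 CPM in HCT116 against 78.8 and 66.6 CPM. Over the 12 libraries neither difference passed (-1.28 ± 0.56 against MHCC97H, edgeR adjusted p = 0.0786, and 1.31 ± 0.56 for A549 against HCT116, adjusted p = 0.0866). On the 9 libraries without TSA, FOSL2 was lower in HCT116 than in MHCC97H (-2.06, adjusted p = 0.00012) and A549 (2.13 for A549 against HCT116, adjusted p = 0.000138). JUN was lower in HCT116 than in MHCC97H there (-2.3, adjusted p = 0.00502), while the 12 libraries gave -1.32 ± 0.76 (adjusted p = 0.17). In the same 9 libraries ATF3 (-1.95, edgeR adjusted p = 0.0128) and JUND (-0.75, adjusted p = 0.039) were lower in A549 than in HCT116. That fit called 10281 of 15763 genes for HCT116 against MHCC97H and 8990 for A549 against HCT116. Over the alternatives the adjusted p spanned 0.00012 to 0.252 and 0.000138 to 0.362 for the FOSL2 differences and 0.00502 to 0.53 for JUN.

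The make-up of each family was compared per length, as shares of the summed RPKM (reads scaled to gene length and library size) of the authors. In the untreated lines FOSL1 made up 69.6, 59.9 and 75.2% of FOS-family RPKM in MHCC97H, A549 and HCT116, FOSL2 26.5, 39.0 and 15.5%, FOS 3.7, 0.9 and 7.9%, and FOSB at most 1.4%. Under TSA the FOSL1 share was 8.8, 7.7 and 45.1%, that of FOS 37.9, 56.7 and 13.6%, and that of FOSL2 49.7, 31.0 and 40.1%. In HCT116 FOSL1 itself went from 39.0 to 35.7 RPKM, and FOSL2 from 8.02 to 31.7 RPKM. The mean share of FOSL1 went from 68.2 ± 7.7% to 20.5 ± 21.3% and that of FOS from 4.2 ± 3.5% to 36.1 ± 21.6% (SD, n = 3). That of FOSL2, the largest mean share under TSA, went from 27.0 ± 11.8% to 40.3 ± 9.4%. FOSL1 led the family in 8 of the 12 libraries, FOSL2 in 3 and FOS in 1, A549 under TSA. GSK126 left FOSL1 at 58.3 ± 19.9% and S2101 at 64.5 ± 23.1%.

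Summed over the family, FOS-type RPKM was 107, 106 and 51.9 in the untreated lines and 40.4, 57.9 and 79.1 under TSA. It was thus lower in MHCC97H and A549 and higher in HCT116. The JUN-type sum was 68.0, 53.4 and 91.7 untreated and 195, 192 and 218 under TSA, higher in each line. JUND made up 37.3 ± 9.9% of the JUN family untreated, 54.8 ± 11.6% under TSA, 48.3 ± 8.4% under GSK126 and 44.3 ± 7.8% under S2101. It led in 10 of the 12 libraries, JUN in untreated MHCC97H (43.2%) and JUNB in untreated A549 (42.2%). In untreated HCT116 JUNB and JUND had nearly equal shares, 48.5 and 48.6%, and JUN had 2.9%, which was 31.1% under TSA.

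**Figure D3:**
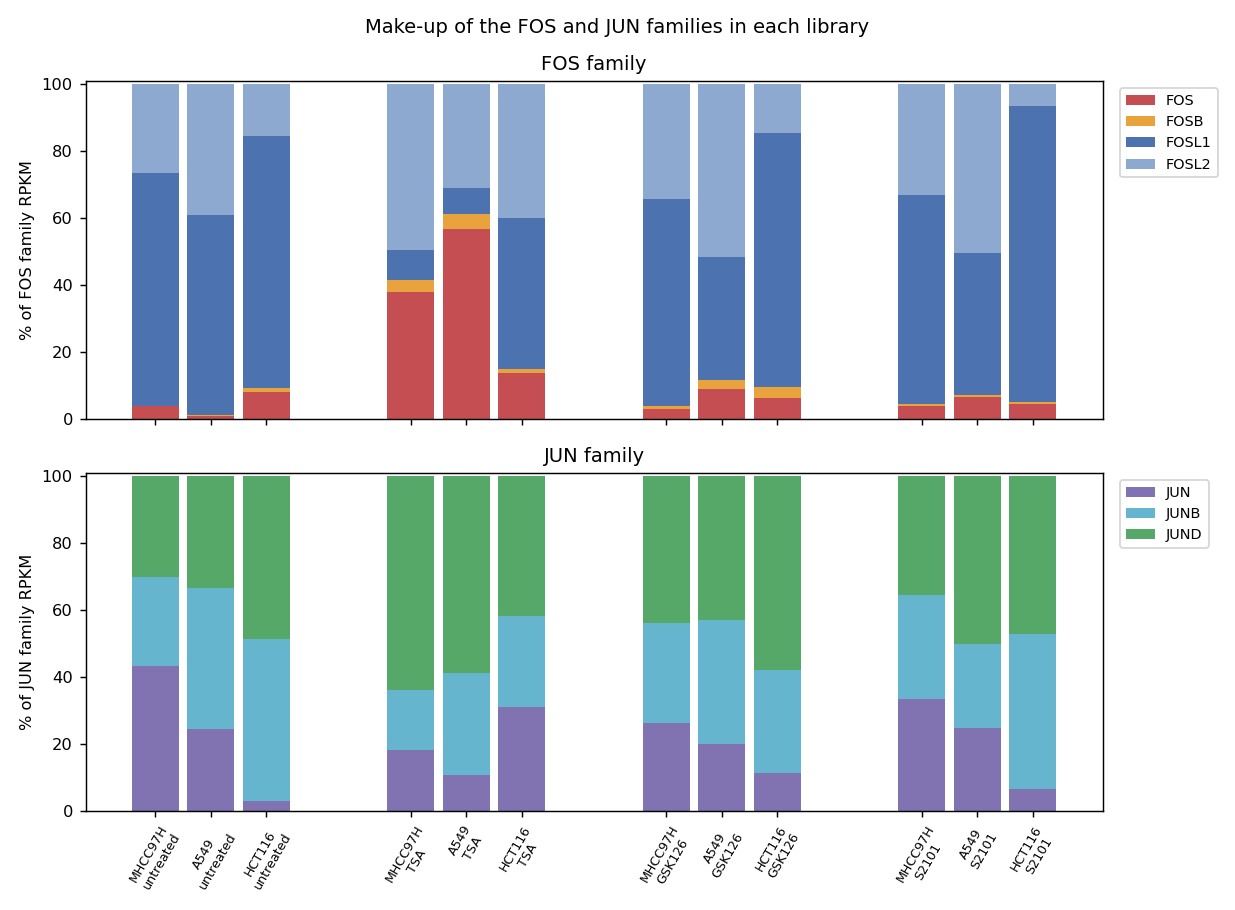
Share of each gene in the summed RPKM of its family (stacked to 100%), for each line within each condition. In the upper panel FOSL1 goes from 69.6 and 59.9% untreated to 8.8 and 7.7% under TSA in MHCC97H and A549, and from 75.2 to 45.1% in HCT116; in the lower panel JUND leads in 10 of 12 libraries.

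The genes around AP-1 were read from 6 lists. The other immediate early genes moved most often under TSA: 12 of 21 tested were higher and 1 lower by edgeR (against 17.1% of all genes in each direction), with a median log2 change of 1.52 against 0.07 over all genes. ARC, a cytoskeletal gene of neurons, was at 0.771, 0.138 and 8.57 CPM untreated and 4.27, 19.7 and 86.5 CPM after TSA (MHCC97H, A549, HCT116; 3.87 ± 0.66, adjusted p = 0.00393). NR4A1, an orphan nuclear receptor, was at 6.8, 20.0 and 17.6 CPM untreated and 144, 160 and 54.8 CPM under TSA (3.16 ± 0.58, adjusted p = 0.00506). Its relative NR4A3 rose by 3.68 ± 0.69 (adjusted p = 0.00557). The zinc finger gene EGR3 rose by 3.2 ± 0.97 (adjusted p = 0.0318), with 9.76 CPM in HCT116 under TSA but 0.133 CPM in MHCC97H.

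Upstream regulators were counted next. Of 16 MAP kinase inputs tested, 1 was higher under TSA and none lower (median 0.07), against 17.1% of all genes in each direction. It was MAP2K3, a kinase that activates p38 (0.83 ± 0.27, edgeR adjusted p = 0.0432). Of 11 genes for serum response factor, its ternary complex factors and the CREB coactivators, none was higher and 2 were lower (median -0.3). CRTC3, a coactivator of CREB, fell by 1.25 on the log2 scale (adjusted p = 0.00888), and ELK4, a ternary complex factor, by 0.62 (adjusted p = 0.00895).

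Of 13 bZIP genes that share partners with AP-1, 2 were higher and 3 lower (15.4% and 23.1%, against 17.1% of all genes in each direction), with a median of 0.0. CREB5 went from 0.911, 1.65 and 2.16 CPM to 11.7, 5.92 and 12 CPM (2.79 ± 0.5, edgeR adjusted p = 0.00469). JDP2, a repressor that dimerizes with JUN, fell by 1.43 (adjusted p = 0.0385), with 10.9 CPM untreated and 11.3 CPM under TSA in MHCC97H. MAF (adjusted p = 0.0425) had no reads in untreated MHCC97H and HCT116, and 5.8 and 3.43 CPM under TSA in MHCC97H and A549. The call for BATF (adjusted p = 0.00797) rested on MHCC97H, where it went from 11.1 to 0.4 CPM, since untreated A549 and HCT116 had no reads.

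Of 20 textbook AP-1 targets tested, 5 were higher and 3 lower under TSA (25% and 15%, against 17.1% of all genes in each direction), and the median of 0.07 equalled that of all genes. The metalloproteinase genes MMP10 (5.67 ± 1.33, edgeR adjusted p = 0.0125) and MMP9 (2.69 ± 0.87, adjusted p = 0.0402) rose from under 1 CPM. Under TSA MMP10 was at 18.5, 0.748 and 2.24 CPM in MHCC97H, A549 and HCT116, and MMP9 only at 1.33, 2.62 and 1.94 CPM. MMP1, which encodes interstitial collagenase, went from 20.7 to 428 CPM in MHCC97H and was at or under 0.303 CPM in the TSA libraries of the other lines (3.7 ± 1.16, adjusted p = 0.036). KRT7, a keratin, was at 2890 CPM in untreated A549 and at 220 CPM there under TSA (-2.99 ± 0.55, adjusted p = 0.00526).

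Of 15 stress-response genes listed with ATF3, none was called higher under TSA and 4 were called lower (0.0% and 26.7%, against 17.1% of all genes in each direction), with a median of -0.26. The change was positive in 6 of the 15, among them DDIT3, which encodes CHOP (1.63, edgeR adjusted p = 0.146), and ASNS (0.98, adjusted p = 0.143), both named after their values were seen. TRIB3, a pseudokinase induced by ATF4, was at 211, 86.5 and 122 CPM untreated and 37.2, 17.6 and 19.6 CPM under TSA (-2.52 ± 0.45, edgeR adjusted p = 0.0045). ATF5 fell by 1.76 (adjusted p = 0.00775), CEBPG by 1.08 (adjusted p = 0.0127) and EIF2AK4, the kinase GCN2, by 0.81 (adjusted p = 0.00892). Under GSK126 and S2101 no gene of the 6 lists passed. Each named list gene that was still tested without A549 lost its call there, with adjusted p from 0.0593 to 0.277.

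**Figure D4:**
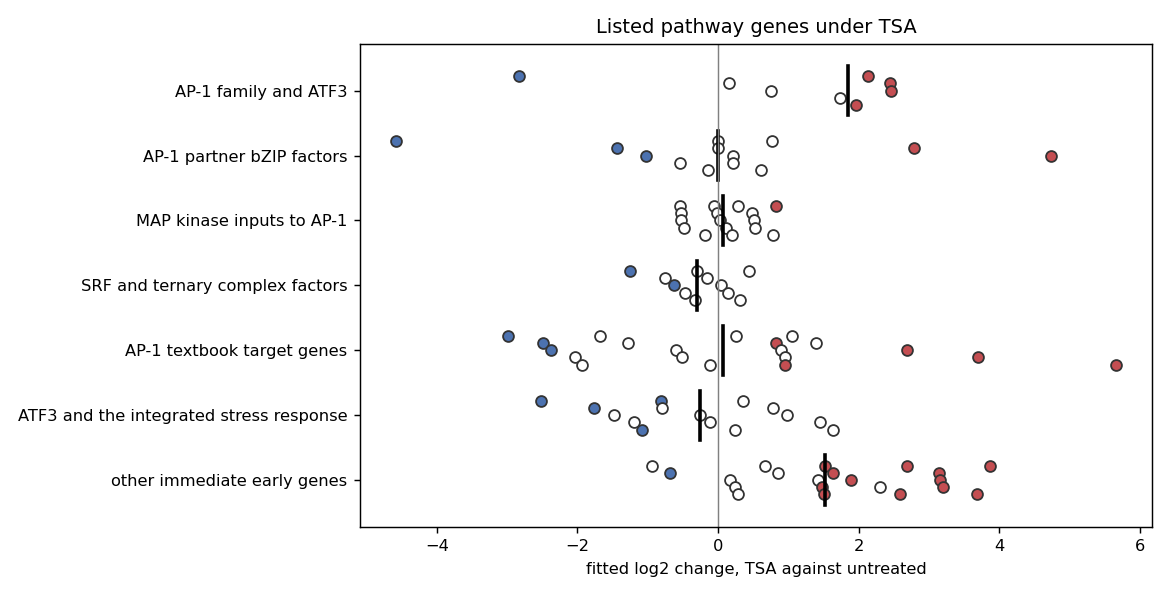
Fitted log2 change under TSA of each tested gene of the AP-1 set and the 6 lists (1 point per gene, vertical position within a list for legibility). Red and blue points passed the edgeR test as higher and lower, open points did not, and black bars are medians: 1.85 for the AP-1 genes and ATF3, 1.52 for other immediate early genes and -0.26 for the stress-response list.

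The pattern of each member over the 12 libraries was described by Pearson's r of log2 CPM after the mean of each line was subtracted, among 11959 genes with a mean of at least 5 CPM. The libraries share lines and conditions, and a large part of the spread lies between TSA and the rest, so r is a description. FOS was most like ZFP36 (r = 0.984), whose protein degrades AU-rich mRNAs, and FOSL1 most like ATRX (0.985), a chromatin remodeller. ATF3 was most like NRBF2 (0.989) and MAP1LC3B (0.98), both autophagy genes, with GCC1 (0.971) next, and JUND most like NR4A1 (0.969). JUNB and FOSB had RELA, the p65 subunit of NF-kB, among the 3 nearest genes (0.982 and 0.954). For FOSB, KCTD11 (0.966) and SSR2 (0.96) were nearer. JUN was nearest to CDKN2B (0.921) and FOSL2 to PSMC4 (0.946), a proteasome subunit.

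Among the 8 genes, the highest r over the 12 libraries were those of FOSB with JUNB (0.93), JUND with ATF3 (0.9) and FOSB with JUND (0.88). The lowest were those of FOSL1 with FOS (-0.77) and with ATF3 (-0.72). JUN and FOSL2, the pair with low levels in HCT116 outside TSA, had r = 0.73.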

How the data were processed

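The authors deposited 1 table per library with raw read counts per gene and RPKM values, per the file headers; builds GRCh38 and hg38 come from the submitters' processing notes. How reads were aligned and counted, and with which strand setting, is not given in the sources used here. Deposited RPKM imply library totals 0.182 to 0.229% above the listed counts (genes with at least 50 reads). Of 25648 genes, 25647 occurred in all 12 tables and were used; an entry naming no gene, in 11 tables, was left out. Libraries of the same cell line are paired by that line, as labelled.

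Counts were tested with edgeR 4.0.16 (R 4.3.3, limma 3.58.1): TMM scaling (factors 0.89 to 1.11), filterByExpr, and glmQLFit on condition plus cell line over all 12 libraries, which leaves 6 residual degrees of freedom. A gene was called at a Benjamini-Hochberg adjusted p under 0.05 over the 16394 tested. The common biological coefficient of variation was 0.295. On data simulated for TSA against untreated (16193 genes), 18% of 100 genes changed by 1 on the log2 scale and 85% of 100 changed by 2 were recovered, and 3.74% of calls were false. Log2 changes within a line use CPM plus a pseudocount of 1, and fold changes within a line are plain ratios of CPM.

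The members and lists were chosen with earlier results of these data known. Named genes are the 8 members, up to 4 called genes with the largest change per list, and genes from among the 3 most like each member. Alternatives were RLE size factors, no filter, DESeq2 1.42.0, no cell line term, each line left out, fits on 6 or 9 libraries, line contrasts without the untreated libraries, the A549 S2101 library left out (in the other compound and line contrasts than S2101 against untreated, chosen after seeing the data), pseudocounts of 0.1 and 5, and family shares without length.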

Additional observations from a re-analysis of the deposited data

Results flagged for a closer look

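In 2 genes, lines moved in opposite directions by at least 1 on the log2 scale under the same compound. FOSL2 under TSA changed by 1.87 in HCT116 and by -1.41 in A549 (log2 of CPM plus 1). FOSL1 under S2101 changed by 1.29 in HCT116 and by -1.17 in A549. Each value sets 1 library against 1, so the difference between the lines was not tested in either case. In the second case the A549 library is the one in which genes with no reads in untreated A549 and at least 5 CPM under TSA stood at 8.57% of their TSA level, and the part of that signal in the FOSL1 value was not tested.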

How the results depend on the processing

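With no replicate block (condition alone, libraries of a line unpaired), 0 members were called under TSA against untreated, 0 against GSK126 and 0 against S2101, and 260, 14 and 0 of all genes. Leaving out 1 line gave 0 to 6 members and 12 to 6495 genes for TSA against untreated, 0 to 3 members and 0 to 5496 genes against GSK126, and 0 to 3 members and 0 to 5144 genes against S2101; these fits have 3 residual degrees of freedom. On the 6 libraries compared, the TSA contrasts called 0 members each and 0, 135 and 0 genes, GSK126 against untreated 3 members and 275 genes, and S2101 against untreated 20 genes. DESeq2, over 16394 genes, called 3 members and 1207 genes under GSK126 and 18 genes under S2101. It called 2 members and 5854 genes for TSA against GSK126, 1 and 9507 for HCT116 against MHCC97H, and 3 and 7890 for A549 against HCT116. The 9 libraries without TSA, with 15763 genes tested, gave 2 members and 2124 genes under GSK126. They gave 0 members and 8901 genes for A549 against MHCC97H, 2 and 10281 for HCT116 against MHCC97H, and 3 and 8990 for A549 against HCT116. No filter on low counts gave 7 genes under GSK126. Without the untreated libraries A549 against MHCC97H gave 0 members and 4581 genes. Without the A549 S2101 library (beyond S2101 against untreated, chosen after seeing the data), TSA against S2101 gave 0 members and 1926 genes and A549 against MHCC97H 0 members and 5448 genes. Beyond the construction of each fit, the cause of these differences was not tested.

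No called member changed direction. Among the fits given in the report, uncalled changes that did were FOSL2 under TSA (-0.37 with no replicate block, -1.04 without HCT116 to 0.93 without A549, -0.14 on 6 libraries), FOSL1 under GSK126 (0.14 with no replicate block, 0.44 without A549 to -0.45 without HCT116, 0.15 on 6 and 0.03 on 9 libraries) and FOSL1 under S2101 (0.16, 0.52 to -0.48, 0.1 and 0.01 in the same order, and 0.09 without the A549 S2101 library). Under S2101 ATF3 ran from -0.3 without MHCC97H to 1.26 without HCT116, FOSB from -0.07 to 1.42 and JUNB from -0.21 to 0.55 likewise, and FOSL2 from -0.26 without MHCC97H to 0.35 without A549. Without the untreated libraries FOSL2 was -0.17 for A549 against MHCC97H (-0.01 without the A549 S2101 library), ATF3 -0.0 for HCT116 against MHCC97H and JUN -0.17 for A549 against HCT116. Of 339 comparisons of a member's fit with an alternative, 255 kept direction and side of the threshold, 49 dropped below it and 15 rose past it, JUN under TSA by DESeq2 among them. RLE size factors changed no member's call. Other pseudocounts moved 5 of 144 changes within a line, and of 168 comparisons of a family share with another scale 21 moved, each with raw counts not divided by length.

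On depth, the lowest count of a member, 12 for FOSB in untreated A549, has an exact 95% Poisson interval of 6.2 to 21.0 reads. The limit is 1 library per line and condition.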
